A study of Mus musculus with 8 samples.

Results

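Malat1, Neat1, H19, Meg3, Kcnq1ot1, Gas5, Snhg1, Snhg12, Pvt1 and Mir17hg are 10 long noncoding RNAs that are widely studied in cancer. They were listed by name, with earlier results of these data known. Each name matched 1 gene of the count table, so the set was 10 of 54532 genes, and all 10 were among the 18238 genes with enough reads to be tested. None of the 10 differed between TLQP21-treated and saline-treated tumours at an adjusted p of 0.05, and in every case the ranges of the groups overlapped. The same test found 0 of the 18238 genes, and the group ranges were without overlap in 302 of them (1.66%), so neither count sets the members apart. Between single libraries the levels of some members differed by up to 3.54 times. Malat1 and Kcnq1ot1 were high and low in the same libraries, and Meg3 was highest where they were lowest. How often other genes pair in this way was not computed.

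The libraries came from tumours that KPC cells, a mouse line of pancreatic ductal adenocarcinoma, had formed in the pancreas of C57BL/6 mice. Saline, the control group, and TLQP21, the group given a peptide that is cut from the neurosecretory protein VGF, were each treated for 2 weeks and hold 4 libraries. Every tumour in both groups was grown from the same KPC line, and the labels name no difference in genotype between the groups. The series asks which transcripts go along with the smaller tumours described under the peptide. Total RNA of whole tumours was sequenced. The RNA of cancer cells was therefore pooled with that of stromal, immune and pancreatic cells, and fewer cells of a type and less RNA per cell cannot be told apart. The labels do not say that the libraries are separate animals, so the spread behind the p-values below may in part be technical.

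As background, these RNAs work as RNA and not through a protein. Malat1 and Neat1 stay in the nucleus: Malat1 gathers in nuclear speckles, where splicing factors are stored, and Neat1 is the scaffold around which paraspeckles form. H19, Meg3 and Kcnq1ot1 are imprinted, which means that 1 parental copy is transcribed. H19 and Meg3 come from the maternal copy and are often described as growth restraining. Kcnq1ot1 comes from the paternal copy, runs antisense through Kcnq1 and silences neighbouring genes. Gas5, Snhg1 and Snhg12 are host genes whose introns carry small nucleolar RNAs, the guides for chemical modification of ribosomal RNA, while their spliced transcripts are kept low by nonsense-mediated decay. Pvt1 lies next to Myc and is gained together with it in many cancers. Mir17hg is the precursor of the miR-17-92 cluster of microRNAs, which promotes proliferation and survival.

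The cluster is shown first because its products, and not the host transcript, act on target messages. The mature sequences below are from RefSeq (build GRCm38.p6, chromosome 14, plus strand, 5′ to 3′), and the capitals mark the seed, bases 2 to 8, which pairs with the target.
miR-17-5p: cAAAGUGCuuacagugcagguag
miR-20a-5p: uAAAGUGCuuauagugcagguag
miR-18a-5p: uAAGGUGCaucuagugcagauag
miR-19a-3p: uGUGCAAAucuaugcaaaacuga
miR-19b-3p: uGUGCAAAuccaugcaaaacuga
miR-92a-3p: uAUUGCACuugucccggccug
The 6 arms carry 4 seeds. miR-17-5p (chr14:115043684-115043706) and miR-20a-5p (chr14:115044183-115044205) share 1 seed, which 7 of the 1679 mature mouse microRNAs of the RefSeq table carry. miR-19a-3p and miR-19b-3p share another, which no other entry carries. The seed of miR-18a-5p was found in 2 entries and that of miR-92a-3p (chr14:115044476-115044496) in 6.

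H19 and Meg3 also hold microRNA hairpins, shown here because they lie inside exons of members whose reads are counted below (capitals again mark the seed). miR-675-5p lies at chr7:142577112-142577133 on the minus strand and miR-770-5p at chr12:109563710-109563731 on the plus strand.
miR-675-5p: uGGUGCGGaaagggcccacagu
miR-675-3p: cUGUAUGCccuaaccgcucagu
miR-770-5p: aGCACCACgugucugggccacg
Each of these 3 seeds was found in 1 entry of the table, the microRNA itself.

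The host genes of small nucleolar RNAs are known for starting their transcripts with a run of pyrimidines, as messages of the translation machinery do. The windows below run from 20 bases before to 30 bases from the annotated start (RefSeq, GRCm38.p6), and the capitals mark the unbroken run of C and T that holds the first transcribed base. Malat1 is shown as a contrast.
Gas5: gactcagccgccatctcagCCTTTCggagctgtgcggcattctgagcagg
Snhg12: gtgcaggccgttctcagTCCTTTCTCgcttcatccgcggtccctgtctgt
Snhg1: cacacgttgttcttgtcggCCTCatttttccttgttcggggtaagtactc
Malat1: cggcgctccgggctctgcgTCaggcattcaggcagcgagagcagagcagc
The windows lie at chr1:161035146-161035195 (Gas5, plus strand), chr4:132308658-132308707 (Snhg12, plus strand), chr19:8723467-8723516 (Snhg1, plus strand) and chr19:5802643-5802692 (Malat1, minus strand). Counted from the first transcribed base, the run was 5 bases in Gas5, 6 in Snhg12, 3 in Snhg1 and 1 in Malat1. A run of at least 5 was found in 1457 of the 32851 promoters of the table (4.44%). Gas5 has another annotated start whose first base is not a pyrimidine. The table held 7 of the 10 members, without Neat1, H19 and Pvt1. The match is a property of the letters only.

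Positions of the genes themselves are on GRCm38, as in the count table, and were the same in the GENCODE M21 annotation. Malat1 (chr19:5795690-5802672, 6983 bases) and Neat1 (chr19:5824708-5845478, 20771 bases) are unspliced neighbours on the minus strand of chromosome 19. H19 lies at chr7:142575529-142578143 and Kcnq1ot1 at chr7:143203458-143296549, both on the minus strand, Kcnq1ot1 as a single block of 93092 bases inside Kcnq1. Meg3 lies at chr12:109541001-109571726, Gas5 at chr1:161034422-161038539, Snhg1 at chr19:8723475-8726443, Snhg12 at chr4:132308623-132311024, Pvt1 at chr15:62037986-62378096 and Mir17hg at chr14:115042879-115046727, all on the plus strand. Pvt1 spans 340111 bases, of which 6996 are exonic.

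Counts summed to 28.4 to 29.0 M reads per library in Saline and 29.03 to 33.5 M in TLQP21. Replicates 1 and 2 of each group had 9960 to 10625 reads of Xist, which coats the inactive X chromosome, and replicates 3 and 4 had 2027 to 2247 reads of 4 Y-linked genes, so that split is balanced between the treatments. All 9 markers of tumour epithelium were detected, with summed levels of 6400 to 6849 CPM (read counts scaled to equal library totals, with trimmed-mean factors) in Saline and 6784 to 7098 CPM in TLQP21. Saline 4 and TLQP21 1 were the highest in acinar genes (76525 and 42836 CPM, against 15989 to 34919 CPM elsewhere), but only Saline 4 stood far apart. Both were also the highest in fibroblast genes (11493 and 8401 CPM, against 5688 to 6728 CPM). Saline 2 stood apart by hepatocyte genes (5712 CPM, against 34.8 to 164 CPM). TLQP21 4 had the highest share of mitochondrial transcripts, 2.80% against 1.74 to 2.21% in the others. It also lay outside the other libraries for some genes of the lists used below. Gnas, of the list of the imprinted gene network, was at 7.13 CPM there against 60.2 to 90.8 CPM. Ctsd was at 224 CPM there against 452 to 530 CPM, Acin1 at 149 against 249 to 283 CPM, and Sf3b1 at 762 against 439 to 572 CPM. Srsf3, at 326 CPM, lay within the others.

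The 10 RNAs together took 0.193 to 0.267% of each library's counts. They made up 21.6 to 26.3% of the counts of all genes annotated as long noncoding. Malat1 and Neat1 gave most of those reads. Levels of different genes were compared per kilobase of exon, as CPM per kilobase over all 8 libraries. Malat1 stood highest at 177 (129 to 222), apart from every other member. Gas5 at 38.7 (31.8 to 45.7) and Neat1 at 33.7 (21.5 to 41.8) overlapped each other. Snhg1 followed at 15.5 (13.9 to 17.01) and overlapped with neither neighbour in the order. H19 at 7.29 (3.68 to 13.0), Snhg12 at 6.12 (3.34 to 7.74) and Mir17hg at 4.34 (3.13 to 5.27) overlapped. Meg3 at 2.80 (1.73 to 3.96) overlapped with Mir17hg, Snhg12 and H19. Pvt1 at 1.06 (0.761 to 1.49) and Kcnq1ot1 at 0.194 (0.122 to 0.268) were each apart from the rest. The lengths are those of merged gene models, which for Gas5, Snhg1 and Snhg12 include intron bases, so the order depends on these models. It also depends on how RNA was selected, which was not given in the sources used here: Malat1 and the long form of Neat1 end without a poly(A) tail, and selection for such tails or removal of ribosomal RNA would capture them and the unspliced Kcnq1ot1 to different degrees. The shares of reads given above carry the same limit.

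**Figure D1:**
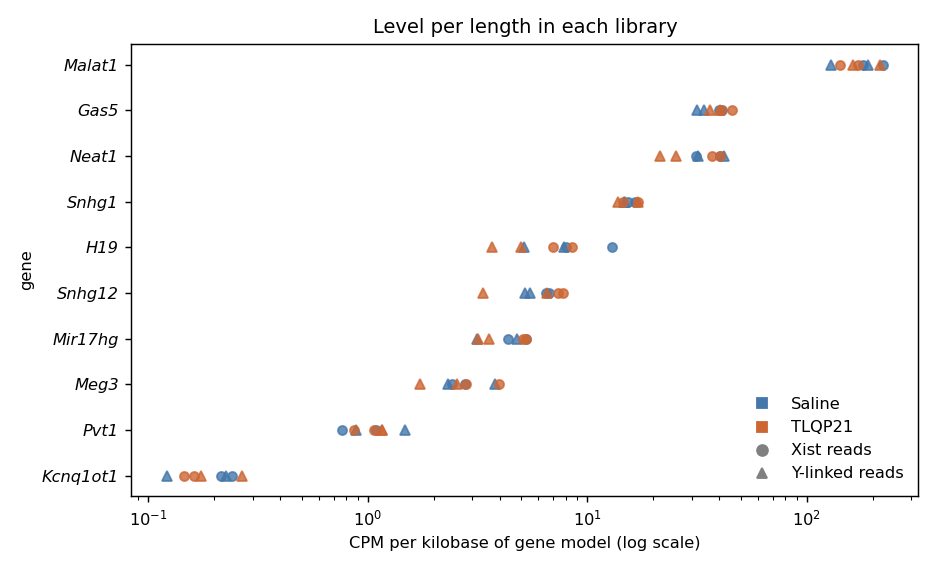
Level of each of the 10 RNAs per kilobase of exon (CPM per kilobase, log axis) in the 8 libraries, one point per library, blue for Saline and orange for TLQP21, circles for libraries with Xist and triangles for those with Y-linked reads. Malat1 lies highest, between 129 and 222, and Kcnq1ot1 lowest, between 0.122 and 0.268, and the 2 colours overlap for every gene.

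Among the nuclear RNAs, Malat1, the speckle RNA, was the most abundant member. Its level was 1266, 1551, 1325 and 901 CPM in Saline 1 to 4 and 986, 1203, 1139 and 1507 CPM in TLQP21 1 to 4. Saline 4 and TLQP21 1 were the lowest, Saline 2 and TLQP21 4 the highest, and the groups overlapped over most of their range. The means were 1261 ± 269 and 1209 ± 219 CPM (SD, n = 4 each). The log2 fold change, TLQP21 minus Saline, was -0.06 (SE 0.18, 95% interval -0.47 to 0.34), with an unadjusted p of 0.745 and an adjusted p of 0.9999 in edgeR's quasi-likelihood test. That adjusted p was the same for all 10 members, and the smallest over all genes was 0.238.

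Neat1, the paraspeckle scaffold, was at 654, 835, 664 and 869 CPM in Saline and at 837, 773, 529 and 446 CPM in TLQP21. The 2 lowest values belonged to TLQP21 3 and TLQP21 4, while TLQP21 1 and TLQP21 2 lay among the Saline libraries. The means were 756 ± 113 and 646 ± 188 CPM, a log2 fold change of -0.23 (SE 0.20, interval -0.68 to 0.23) with an unadjusted p of 0.296 in edgeR. Without TLQP21 4 the log2 fold change was -0.08, and without TLQP21 1 it was -0.38. Between the 2 nuclear RNAs, the ratio of Malat1 to Neat1 reads was 1.94, 1.86, 1.99 and 1.04 in Saline and 1.18, 1.56, 2.15 and 3.38 in TLQP21. Both extremes came from single libraries, Saline 4 and TLQP21 4, and the group means of 1.71 ± 0.449 and 2.07 ± 0.961 did not differ beyond that spread (exact two-sided permutation p = 0.6).

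**Figure D2:**
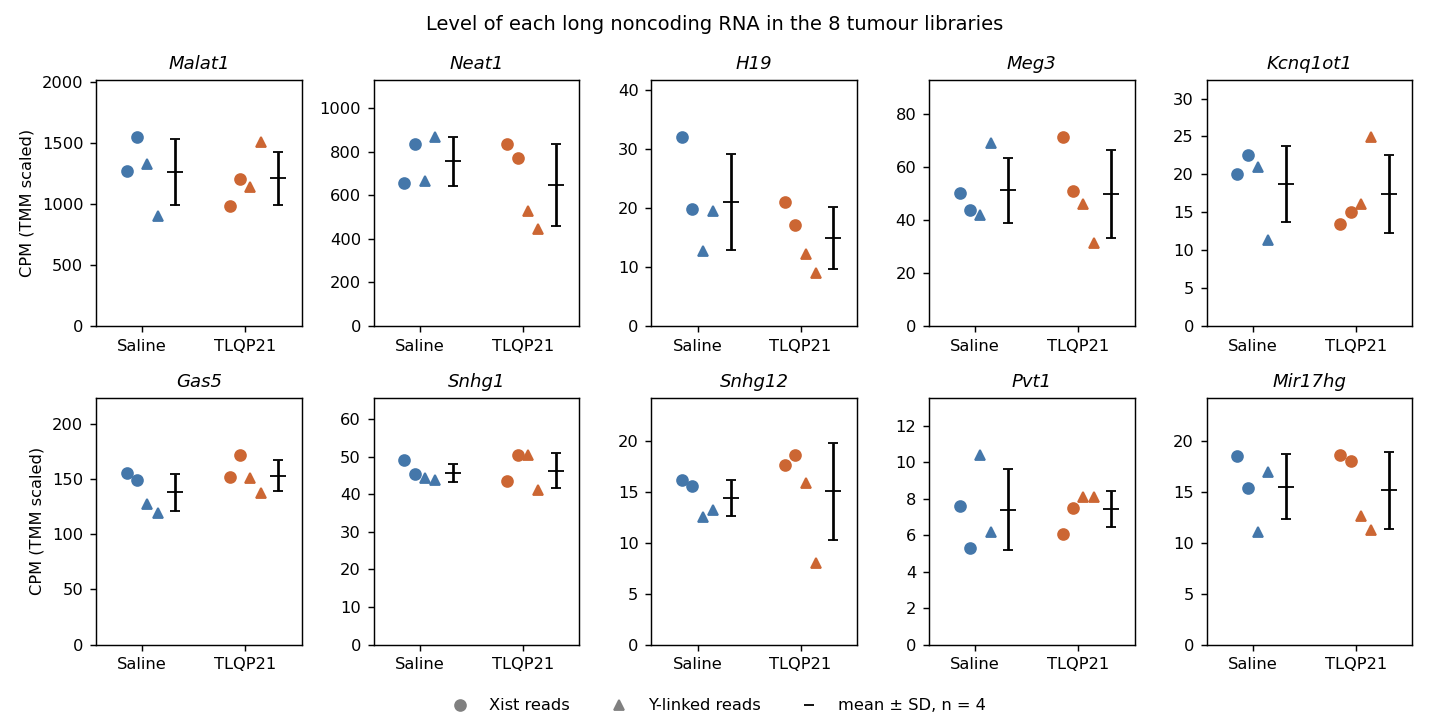
CPM of each of the 10 RNAs in the 8 libraries, one panel per gene with its own linear axis from 0. Points are libraries 1 to 4 of Saline (blue) and TLQP21 (orange) from left to right, circles for libraries with Xist and triangles for those with Y-linked reads, and black marks are the mean ± SD (n = 4). The points of the 2 groups overlap in all 10 panels, and Saline 4 and TLQP21 1 sit low for Malat1 and Kcnq1ot1 and high for Meg3.

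Of the imprinted RNAs, H19 had the largest difference of the 10 in size. It stood at 32.1, 19.8, 12.7 and 19.4 CPM in Saline and at 21.0, 17.2, 12.3 and 9.05 CPM in TLQP21. Saline 1 was the highest and TLQP21 4 the lowest, with the others between 12.3 and 21.0 CPM in both groups. The means were 20.98 ± 8.08 and 14.9 ± 5.28 CPM. The log2 fold change was -0.50 (SE 0.31, interval -1.20 to 0.20, or 0.437 to 1.15 on the fold scale) and the unadjusted p was 0.143 in edgeR. Without Saline 1 the log2 fold change was -0.22, without TLQP21 4 it was -0.32 and without TLQP21 1 it was -0.71.

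Meg3 was at 50.2, 43.8, 41.8 and 69.0 CPM in Saline and at 71.6, 51.0, 46.1 and 31.2 CPM in TLQP21. Its 2 highest libraries, Saline 4 and TLQP21 1, came 1 from each group. The means were 51.2 ± 12.4 and 49.97 ± 16.7 CPM and the log2 fold change -0.04 (SE 0.24, interval -0.58 to 0.50). Without Saline 4 the estimate was 0.14 and without TLQP21 1 it was -0.26, so its sign rested on 1 library at a time. Kcnq1ot1 showed the reverse order, with 20.01, 22.6, 21.0 and 11.4 CPM in Saline and 13.5, 15.1, 16.1 and 25.0 CPM in TLQP21. Saline 4 and TLQP21 1 were its 2 lowest libraries and TLQP21 4 its highest. The means were 18.7 ± 5.01 and 17.4 ± 5.15 CPM and the log2 fold change -0.10 (SE 0.25, interval -0.66 to 0.45).

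Of the host genes of small nucleolar RNAs (snoRNAs), Gas5 and Snhg1 varied least of the 10 members. Gas5 was at 155, 149, 128 and 119 CPM in Saline and at 152, 172, 151 and 137 CPM in TLQP21. All 4 TLQP21 libraries were above the 2 lower Saline libraries, and the ranges overlapped between 137 and 155 CPM. The means were 138 ± 17.1 and 153 ± 14.3 CPM, a log2 fold change of 0.15 (SE 0.11, interval -0.10 to 0.40), the highest of the 10, with an unadjusted p of 0.207 in edgeR. Snhg1 was steadier still, with 49.2, 45.6, 44.3 and 43.8 CPM in Saline and 43.5, 50.4, 50.5 and 41.2 CPM in TLQP21. Its highest library was 1.23 times its lowest. The means were 45.7 ± 2.43 and 46.4 ± 4.79 CPM and the log2 fold change 0.02 (SE 0.10), with an interval of 0.874 to 1.18 on the fold scale.

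Snhg12 was at 16.1, 15.6, 12.5 and 13.2 CPM in Saline and at 17.6, 18.6, 15.8 and 8.03 CPM in TLQP21. TLQP21 1 and TLQP21 2 were above every Saline library, and TLQP21 4 was the lowest of all 8. The means were 14.4 ± 1.77 and 15.0 ± 4.80 CPM and the log2 fold change 0.06 (SE 0.24, interval -0.47 to 0.60). Without TLQP21 4 it was 0.27. That library also stood apart in the ratios among hosts. Gas5 reads were 17.1 times Snhg12 reads in TLQP21 4 and 8.65 to 10.2 times in the other 7 libraries. Snhg1 reads were 5.13 times Snhg12 reads there and 2.47 to 3.54 times elsewhere. The ratio of Gas5 to Snhg1 was 2.73 to 3.28 in Saline and 3.00 to 3.50 in TLQP21 (means 3.01 ± 0.251 and 3.31 ± 0.221, exact two-sided permutation p = 0.143).

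Pvt1, the neighbour of Myc, was at 7.62, 5.32, 10.4 and 6.20 CPM in Saline and at 6.06, 7.48, 8.10 and 8.12 CPM in TLQP21. The Saline libraries held both the highest and the lowest value. The means of 7.39 ± 2.22 and 7.44 ± 0.970 CPM gave a log2 fold change of 0.01 (SE 0.22, interval -0.49 to 0.51). Pvt1 had 152 to 303 reads per library, the fewest of the 10. Myc itself, the transcription factor gene beside it, was at 86.5 ± 16.0 CPM in Saline and 87.0 ± 18.4 CPM in TLQP21 (log2 fold change 0.01).

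Mir17hg was at 18.6, 15.4, 11.1 and 17.02 CPM in Saline and at 18.6, 18.1, 12.7 and 11.3 CPM in TLQP21. Both groups ran from about the same lowest to about the same highest value. The means were 15.5 ± 3.22 and 15.2 ± 3.75 CPM and the log2 fold change -0.03 (SE 0.21, interval -0.51 to 0.44). These reads are of the host transcript. The 6 hairpin genes of the cluster, whose sequences are given above, had no read in any library.

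**Figure D3:**
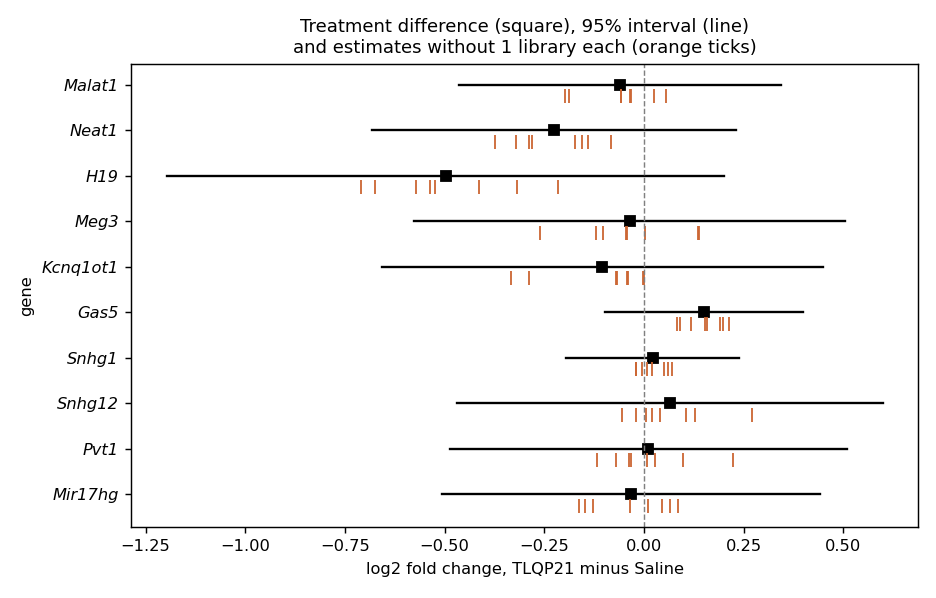
Log2 fold change (TLQP21 minus Saline) of the 10 RNAs as squares with 95% intervals as lines, from edgeR's quasi-likelihood fit, and the estimates with 1 library left out as orange ticks. Every interval includes 0, from H19 at -0.50 to Gas5 at 0.15.

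Read as a set, 4 members were above 0 and 6 below, with a median log2 fold change of -0.03. Over all 18238 genes 9221 were above and 9017 below with a median of 0.00, and over the 1646 tested long noncoding genes 802 were above and 844 below with a median of -0.01. edgeR called 0 members, against 0 of 18238 genes (0%), with 0 members and 558 genes (3.06%) at an unadjusted p under 0.05, of which 145 were higher and 413 lower in TLQP21. DESeq2 called 4 genes and limma voom 1, none of them a member. The ranges of Saline and TLQP21 did not overlap in 0 of 10 members and in 302 of 18238 genes (1.66%). For 9 of the 10 members the 95% interval of the fold lay between 0.623 and 1.51, and for H19 its lower end reached 0.437. The narrowest intervals were those of Snhg1, 0.874 to 1.18, and Gas5, 0.934 to 1.319. Across the 8 libraries the coefficient of variation ran from 7.68% in Snhg1 and 11.5% in Gas5 to 39.7% in H19. The median was 21.8% over the members, 30.4% over the tested long noncoding genes and 14.9% over protein-coding genes.

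The split by Xist and Y-linked reads gave another way to look at each member. H19 was at 22.5 ± 6.57 CPM in the 4 libraries with Xist and at 13.3 ± 4.35 CPM in the 4 with Y-linked reads, a log2 difference of -0.77 (SE 0.20) with Y-linked minus Xist as its direction. Its unadjusted p was 0.00446 and its adjusted p 0.181 in edgeR. Mir17hg was at 17.7 ± 1.51 and 13.0 ± 2.77 CPM (log2 difference -0.45), and Snhg12 at 16.98 ± 1.38 and 12.4 ± 3.25 CPM (-0.45). Gas5 was at 157 ± 10.1 and 134 ± 13.6 CPM (-0.23). These 4 had unadjusted p-values under 0.05, all lower with Y-linked reads, and adjusted p-values of 0.181 to 0.363. Over all genes 2480 of 18238 (13.6%) had an unadjusted p under 0.05 in that comparison, 1291 higher and 1189 lower. Among the tested long noncoding genes it was 174 of 1646 (10.6%), 40 higher and 134 lower. No member passed, against 68 of 18238 genes (0.373%), and the ranges of the kinds overlapped for all 10.

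Genes that respond to handling and RNA state followed the same split in part. Of 13 immediate-early and heat-shock genes, 5 (Fos, Fosb, Egr1, Ier2 and Dusp1) were higher in all 4 libraries with Y-linked reads than in any with Xist. Fosb was at 5.47 to 6.06 CPM with Xist and at 46.8 to 115 CPM with Y-linked reads, and Dusp1 at 51.3 to 70.2 and 114 to 186 CPM. The sum of all 13 overlapped, with 2757 to 3531 and 3088 to 5074 CPM. Such genes were not the only ones to follow the split. Of 9 erythroid genes, 4 were without overlap, all 4 higher with Y-linked reads. Of 9 epithelial genes 2 were, 1 of them higher. In the neuronal and glial list 1 gene was higher, and in the leukocyte list and the B and plasma cell list 1 each was lower. The share over all genes is not given here. The part of handling or of the mix of cells in the lower H19, Gas5, Snhg12 and Mir17hg of the Y-linked libraries was not tested.

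With that split in the fit, the treatment difference of H19 was -0.52 on the log2 scale (unadjusted p = 0.0318, adjusted p = 0.995 in edgeR). H19 was lower in TLQP21 within both kinds, by log2 ratios of -0.41 with Xist and -0.57 with Y-linked reads. Gas5 was higher within both, by 0.09 and 0.22. Others pointed in opposite directions: Neat1 by 0.12 and -0.65, Meg3 by 0.37 and -0.50, Kcnq1ot1 by -0.57 and 0.38, and Malat1 by -0.36 and 0.26. The test of that difference called no member and 0 of 18238 genes (0%). Its smallest unadjusted p among the members was 0.0216, for Neat1, with an adjusted p of 0.842. It was the 1 member of 10 with an unadjusted p under 0.05, against 876 of 18238 genes (4.80%). Each of these ratios compares 2 libraries with 2.

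The members were also compared with each other across libraries. Over the 8 libraries, log2 CPM of Malat1 and Kcnq1ot1 gave Pearson's r = 0.961 (exact permutation p = 0.000198, adjusted over 45 pairs 0.00893) and Spearman's rho = 0.952 (p = 0.00114, adjusted 0.0502). Both were lowest in Saline 4 and TLQP21 1 and ran up to TLQP21 4 and Saline 2. Without Saline 2 and Saline 4, the libraries farthest from the median of Malat1, r was 0.945. After group means were removed r was 0.961, and after the means of the Xist and Y-linked kinds were removed it was 0.968. The kinds hold 4 libraries each, too few for a correlation within one.

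Meg3 ran against both. Meg3 and Kcnq1ot1 gave r = -0.894 (exact permutation p = 0.00181, adjusted 0.0407) and rho = -0.929 (adjusted 0.0502), and r = -0.879 without TLQP21 1 and TLQP21 4. Malat1 and Meg3 gave r = -0.881 (adjusted exact permutation p = 0.0700) and rho = -0.833 (adjusted 0.138). H19 and Mir17hg gave r = 0.865 (adjusted exact permutation p = 0.0644) and rho = 0.810 (adjusted 0.140). Among the snoRNA hosts, Gas5 and Snhg1 gave r = 0.664 (adjusted 0.243) and Snhg1 and Snhg12 r = 0.712 (adjusted 0.183, both exact permutation tests). Of 45 pairs, 27 were positive, 2 passed by r and 0 by rho. The share of all gene pairs with such values was not computed. The 2 pairs are therefore not shown to be unusual in these libraries.

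**Figure D4:**
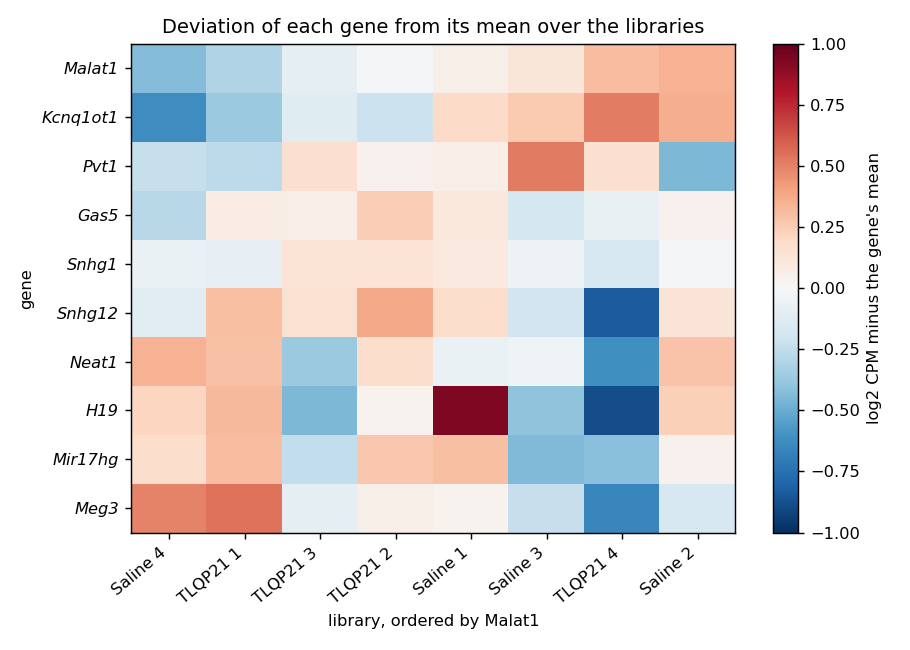
Log2 CPM of each of the 10 RNAs in the 8 libraries as the difference from that gene's mean over all libraries, the libraries ordered by Malat1, blue below and red above the mean. Malat1 and Kcnq1ot1 are below their means in Saline 4 and TLQP21 1, where Meg3 is above its mean, and Snhg1 changes little.

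The 2 libraries that were highest for Meg3 were also those highest in fibroblast genes (11493 CPM in Saline 4 and 8401 CPM in TLQP21 1) and in endothelial genes (612 and 541 CPM, against 373 to 412 CPM in the others). All 10 fibroblast and all 10 endothelial markers were detected in the series. The acinar sum was highest in the same 2 libraries, and immediate-early and heat-shock genes summed to 5074 CPM in Saline 4, against 2757 to 3993 CPM elsewhere. Islet cells are known to express Meg3, and their genes summed to 431 CPM in Saline 4 and 292 CPM in TLQP21 1, and to 123 to 399.9 CPM in the others. The part of these cells and of RNA state in the pattern of Meg3, Malat1 and Kcnq1ot1 was not tested.

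For each member the single most similar gene was sought among 12238 genes of at least 5 CPM, by Pearson's r of log2 CPM over the 8 libraries. As the highest of so many, these values are a description. Meg3 was closest to Loxl1, a lysyl oxidase of collagen and elastin (r = 0.988, rho = 0.976). Malat1 was closest to Fbxl20 (0.969 and 0.976) and Kcnq1ot1 to Rida (0.971 and 1). Neat1 was closest to Borcs6 (0.963 and 0.905) and H19 to Atxn7l3b (0.972 and 0.881). Gas5 was closest to Zfp61 (0.974 and 1), Snhg1 to Agbl5 (0.950 and 0.929) and Snhg12 to Psmb5, a proteasome subunit (0.987 and 0.905). Pvt1 was closest to Smc1a, a cohesin subunit (0.951 and 0.929), and Mir17hg to Zfp747 (0.957 and 1).

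In the annotation, 23 small nucleolar RNA genes lie inside the hosts, 10 in Gas5, 8 in Snhg1 and 5 in Snhg12, and 9 microRNA genes lie inside Mir17hg (6), Meg3 (2) and H19 (1). All 32 fell within exons of the merged gene models, and all 32 had 0 reads in every library. Over the table, 338 of 1507 snoRNA genes (22.4%) and 603 of 2207 microRNA genes (27.3%) had a read. Because these genes share exon bases with their hosts, the 0s do not measure the small RNAs: 17.8% of exon bases of Gas5, 20.9% of Snhg1, 19.6% of Snhg12 and 15.2% of Mir17hg also belong to another annotated gene. Kcnq1ot1 shares only 1.20% of its bases with other exons. Its host Kcnq1, a potassium channel gene on the opposite strand, was at 36.1 ± 2.80 CPM in Saline and 38.2 ± 2.09 CPM in TLQP21. The strand setting of the counting was not given in the sources used here, so unspliced Kcnq1 RNA and Kcnq1ot1 cannot be told apart within the shared span.

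No protein partner of the nuclear RNAs was called. As edgeR called 0 of all 18238 genes, no gene of this or the following lists could be among those called. Of all genes, 50.6% were above 0. Of 15 nuclear speckle proteins tested, 11 were above 0 and 4 below, with a median log2 fold change of 0.02 and none called. Of 18 paraspeckle proteins, 10 were above and 8 below, with a median of 0.01 and none called. Nono, a core protein of the paraspeckle, was at 333 ± 19.95 and 353 ± 21.4 CPM, and its partner Sfpq at 273 ± 15.5 and 266 ± 20.6 CPM (Saline and TLQP21, as in all pairs below).

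No listed neighbour of the imprinted RNAs was called, and no gene of the whole table was. Igf2, the growth factor gene that shares enhancers with H19, had 4 reads in Saline and 9 in TLQP21, summed over each group, and was not tested. Of the 16 tested genes near H19 and Kcnq1ot1, 6 were above 0 and 10 below (median -0.01), none called. Dlk1, the protein-coding gene next to Meg3, had 40 and 28 reads in all and was not tested either. Of 9 tested genes near Meg3, 7 were above 0 and 2 below (median 0.01), none called. Rian and Mirg, noncoding RNAs downstream of Meg3 on the same strand, were at 37.4 ± 10.01 and 42.2 ± 7.01 CPM and at 1.46 ± 0.602 and 1.61 ± 0.544 CPM. Rtl1, a retrotransposon-derived gene of that region, had 11, 10, 12 and 10 reads in Saline and 15, 33, 43 and 15 in TLQP21. Its groups did not overlap, with a log2 fold change of 1.14 (SE 0.40, unadjusted p = 0.0183, adjusted p = 0.9999 in edgeR), and with so few reads and an antisense partner on the other strand the level is uncertain. Of 13 tested genes of the wider imprinted gene network, 9 were above 0 and 4 below (median 0.06), none called.

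Around the snoRNA hosts, 10 of 16 other host genes were above 0 and 6 below (median 0.05), none called. Snhg6 was at 40.9 ± 6.95 and 50.1 ± 8.40 CPM, and the low Snhg10 at 0.907 ± 0.328 and 1.52 ± 0.334 CPM (unadjusted p = 0.0439, adjusted 0.9999 in edgeR). Of 15 proteins of small nucleolar ribonucleoproteins, 10 were above and 5 below (median 0.05), none called. Nop56, a core protein of the box C/D type, was at 184 ± 11.6 and 206 ± 17.4 CPM. Of 15 nonsense-mediated decay factors, 8 were above and 7 below (median 0.01), none called. Of 14 messages with terminal pyrimidine runs, the start shared by host genes such as Gas5, 11 were above and 3 below (median 0.06), none called. Eif3e, a translation initiation factor gene, was at 166 ± 8.56 and 190 ± 41.8 CPM. Its higher mean rested on TLQP21 4, at 251 CPM against 157 to 178 CPM in the other TLQP21 libraries. Eif3f was lower, at 189 ± 10.04 and 178 ± 5.05 CPM, and was the 1 gene of the list without overlap (unadjusted p = 0.273 in edgeR). The gap was very small, as its lowest Saline library was at 180.94 CPM and its highest TLQP21 library at 180.85 CPM.

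Around Pvt1 and Mir17hg, 12 of 21 genes of the list of Myc and its targets were above 0 and 9 below (median 0.01), none called. Mxd1, an antagonist of Myc, was at 116 ± 37.7 and 85.2 ± 16.7 CPM. Of 21 genes reported as targets of the miR-17-92 cluster, 9 were above and 12 below (median -0.03), none called. The 3 with an unadjusted p under 0.05 were lower, as were 413 of the 558 such genes among all tested, and each had an adjusted p of 0.9999 in edgeR. E2f2, a cell cycle transcription factor gene, was at 22.8 ± 8.16 and 14.4 ± 0.994 CPM (unadjusted p = 0.0161 in edgeR). Cdkn1a, the gene of the cell cycle inhibitor p21, was at 89.3 ± 20.03 and 67.4 ± 10.8 CPM (unadjusted p = 0.0335 in edgeR). Bcl2l11, which encodes the death promoter Bim, was at 80.5 ± 9.89 and 68.3 ± 5.10 CPM (unadjusted p = 0.0452 in edgeR). Of 11 other microRNA host genes, 3 were above and 8 below, with a median of -0.20, the farthest from 0 of the 13 lists, and none called. Mir155hg was at 5.68 ± 0.416 and 4.35 ± 0.828 CPM without overlap (unadjusted p = 0.0671). It and Mir142hg, which is in the same list, are known as genes of leukocytes. All 10 markers of each immune list were detected. General leukocyte markers summed to 1347 to 1562 CPM in Saline and 1068 to 1615 CPM in TLQP21, neutrophil markers to 688 to 1827 and 430 to 821 CPM, and markers of B and plasma cells to 1775 to 2988 and 1241 to 2311 CPM. The part of these cells in the list's median was not tested.

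Of 18 other long noncoding RNAs tested, 8 were above 0 and 10 below (median -0.00), none called. Ftx, an activator of Xist, was at 9.53 ± 0.346 CPM in Saline and 12.4 ± 1.92 CPM in TLQP21 without overlap (log2 fold change 0.38, SE 0.14). Its unadjusted p was 0.0236 and its adjusted p 0.9999 in edgeR. Hotair had no read in any library and was not tested.

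**Figure D5:**
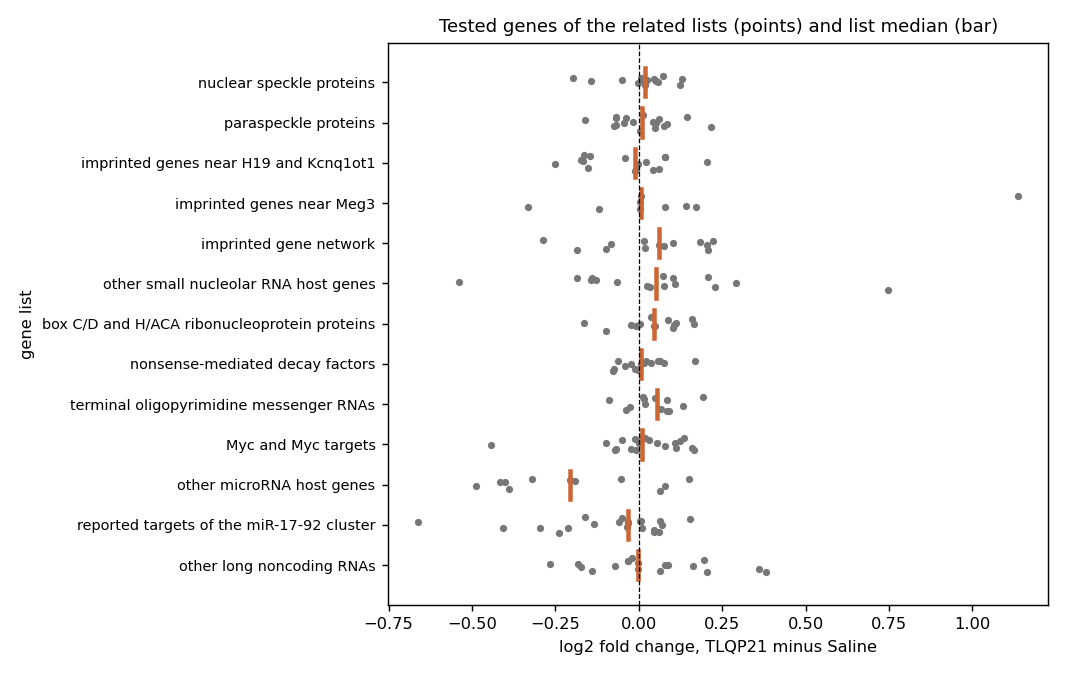
Log2 fold change (TLQP21 minus Saline) of every tested gene of the 13 related lists, one point per gene and one row per list, with the list's median as a bar and a line at 0. All medians lie between -0.20 and 0.06. No gene of any list was called by edgeR, and 0 of all 18238 genes were.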

How the data were processed

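The 8 tumour libraries (Saline 4, TLQP21 4) were read from 1 table of raw read counts per gene, deposited as whole numbers without normalisation. Per the labels' protocols, libraries were made from total RNA with the NEBNext Ultra RNA kit and sequenced as 150 bp paired ends on an Illumina NovaSeq instrument. The submitters' processing notes name GRCm38 as the build and, as tools, DESeq2 1.32.0, featureCounts 1.5.0-p3 and HISAT2 2.0.5. Neither the strand setting nor the release of the annotation was stated in the sources used here. Gene length in bases was taken from another column of the deposited table.

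Groups and replicate numbers are from the sample titles. Counts were tested in R 4.3.3 with edgeR 4.0.16 (default low-count filter by group, trimmed-mean scaling, quasi-likelihood test, no covariates), with Benjamini-Hochberg adjustment over all 18238 genes tested and a threshold of 0.05. DESeq2 1.42.0 and limma 3.58.1 (voom with quality weights) were alternatives, beside other scalings and filters, a replicate block, covariates and each library left out in turn. This fit was first tested on simulated data. Levels are CPM. Log2 CPM took a prior count of 2 in the search for the closest gene and none between members. The labels name no batch, and no 2 libraries were alike within sampling noise (over 28 pairs, chi-square divided by its degrees of freedom was at least 19.0).

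The members and the gene lists were chosen with earlier results of these data known. Genes named were the 10 members, up to 3 tested genes per list with the smallest unadjusted p, genes overlapping or beside a member, and for each member the gene closest to it by Pearson's r. Nono, Sfpq, Rian, Mirg, Myc, Igf2, Dlk1 and Hotair were named as partners, neighbours or well-known RNAs, the choice made with their values known.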

Additional observations from a re-analysis of the deposited data

How the results depend on the processing

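Of 19 alternatives, 8 of which left out 1 library each, none called any of the 10 RNAs. edgeR called 0 genes, DESeq2 4 and voom 1. With the replicate block edgeR again called 0 genes and 0 members, and H19 was at -0.49 (unadjusted p = 0.0394). Deviations of libraries with the same number correlated by 0.115, 0.194, 0.271 and -0.053, so the samples were not treated as paired. Neat1, H19, Kcnq1ot1 and Gas5 kept their sign throughout, with log2 fold changes from -0.38 to -0.04, from -0.71 to -0.22, from -0.37 to -0.00 and from 0.08 to 0.21. The sign of Meg3 turned to 0.0014 with total counts only, to 0.10 with voom and to 0.060 with acinar genes as a covariate, that of Mir17hg to 0.084 with voom, and that of Pvt1 to -0.053 with the acinar covariate. With libraries left out in turn, Malat1 ran from -0.20 to 0.054, Meg3 from -0.26 to 0.14, Snhg1 from -0.021 to 0.070, Snhg12 from -0.054 to 0.27, Pvt1 from -0.12 to 0.22 and Mir17hg from -0.16 to 0.085. The cause was not tested. Kcnq1ot1 had an unadjusted p of 0.0394 with voom (-0.37, adjusted p = 0.454). Depth was lowest for Pvt1 (152 to 303 reads) and Snhg12 (260 to 646 reads).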
